A study of Homo sapiens with 2 samples.

Results

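The 44 genes described here act in G2 and M phase, the part of the cell cycle in which a cell prepares for and carries out division. They were listed by symbol from their known roles, at a time when earlier results of these data were known. All 44 were found among the 36601 genes of the deposited single-cell data. The cells are HUVECs, endothelial cells from the vein of the human umbilical cord, which the labels list as a cell line. In the 5% pdRBC group, HUVECs lining microfluidic channels of 50 µm were perfused for 4 hours with red blood cells of which 5% had lost water through nystatin and sucrose washes (pdRBC, 40 to 42 g/dL mean hemoglobin concentration per cell) and the rest were healthy. In the hRBC group, the same kind of lining was perfused for 4 hours with healthy red cells alone. Both linings had grown to confluence under flow in about 48 hours. The pdRBCs, made from healthy red cells, model the low deformability of sickle red cells. RNA was read from the 5′ end in single cells, with 1 library for each perfusion. Hence no test or p-value is given, and no value below has a biological replicate. The sources used here do not say how many devices or donors a library holds.

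Division is driven by CDK1, a kinase that needs a cyclin partner, and it ends when the anaphase-promoting complex marks cyclin B and securin for destruction. Most of the genes are silent in resting cells and are switched on together late in the cycle. In resting cells the DREAM complex holds them off, and in cycling cells the MuvB core with B-MYB and FOXM1 switches them on, in large part through a promoter element called CHR, beside CCAAT boxes that NF-Y binds. Endothelial cells in a vessel rarely divide, while HUVECs in culture do so until they are confluent.

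The promoters are shown because they carry the elements through which these genes are known to be switched on together. Promoter windows from RefSeq (GRCh38.p14, 250 bases before to 50 after the start) matched 38 of the 44 genes. CHR was searched as the letters TTTGAA or, as its variant form, the letters TTCGAA. The NF-Y box was searched as CCAAT. Both strands were read, and matches of the 2 elements were allowed to overlap. A CHR stood in 30 of the 38 windows (78.9%), against 16.6% of all 27305 promoter windows. A CCAAT box stood in 31 (81.6%), against 35.7% of all windows, and both elements in 26 (68.4%), against 6.58%. Promoters of 40 other mitotic genes were closer to these, with a CHR in 70%, a CCAAT box in 67.5% and both in 52.5%. More than 1 CCAAT box stood in 20 of the 38 windows (52.6%), against 11.3% of all. Such matches describe letters in a window and do not show binding. Shown are 170 bases that end just before the RefSeq start (27 bases before it for CDC20) for CDC20, CDK1 and CENPF, each at least 1.5-fold lower with 5% pdRBC, and for MKI67 and CKS2, which were close to level. They lie at chr1:43358785-43358954 (plus strand), chr10:60778161-60778330 (plus strand), chr1:214603025-214603194 (plus strand), chr10:128126424-128126593 (minus strand) and chr9:89311025-89311194 (plus strand). Each reads 5′ to 3′ on its gene's strand, and capitals mark the CHR and CCAAT matches of either strand.
CDC20: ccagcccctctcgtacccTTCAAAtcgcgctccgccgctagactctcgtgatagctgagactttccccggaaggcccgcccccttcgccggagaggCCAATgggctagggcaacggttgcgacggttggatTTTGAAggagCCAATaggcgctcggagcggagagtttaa
CDK1: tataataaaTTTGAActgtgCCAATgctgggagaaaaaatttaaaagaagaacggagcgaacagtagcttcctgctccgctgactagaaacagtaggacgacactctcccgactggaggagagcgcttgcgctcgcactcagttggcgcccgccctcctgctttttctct
CENPF: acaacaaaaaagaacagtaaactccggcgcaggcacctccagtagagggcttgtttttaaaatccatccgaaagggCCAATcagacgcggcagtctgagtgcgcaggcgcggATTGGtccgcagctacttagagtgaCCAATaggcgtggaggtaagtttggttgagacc
MKI67: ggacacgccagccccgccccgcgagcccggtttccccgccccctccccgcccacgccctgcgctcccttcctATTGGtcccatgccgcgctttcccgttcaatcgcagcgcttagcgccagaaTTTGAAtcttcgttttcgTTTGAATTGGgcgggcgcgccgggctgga
CKS2: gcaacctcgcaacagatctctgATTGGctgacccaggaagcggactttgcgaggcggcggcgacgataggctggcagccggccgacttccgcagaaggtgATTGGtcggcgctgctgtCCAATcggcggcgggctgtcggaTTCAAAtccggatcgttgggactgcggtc
Both the genes that were lower and those that were level hold CCAAT boxes here. CENPF shows no CHR in these bases, although its window has one after the start. In MKI67 a CHR and a CCAAT box share bases, which makes one longer run of capitals.

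The 5% pdRBC library held 1635 barcodes and the hRBC library 3858, of which 1601 and 2555 were kept as cells, with 16127985 UMIs (counted RNA molecules) in 5% pdRBC and 13335148 in hRBC. Cells differed in depth, with a median of 9566 UMIs in 5% pdRBC and 2175 in hRBC. The libraries shared 9 barcode sequences. All 10 endothelial markers checked were detected in both, at a summed 3811 CPM (UMIs per 1000000 UMIs of the library) in 5% pdRBC and 4029 CPM in hRBC. Markers of 8 other cell types, 41 in all, summed to at most 4.05 CPM for any type in either library, and HBA1, HBA2, CD3D, CD3E, PPBP and PF4 were at 0 in both. The median mitochondrial share was 1.85% in 5% pdRBC and 2.17% in hRBC.

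Over all kept cells the G2 and M phase genes together were lower with 5% pdRBC. They summed to 9823 UMIs, or 609.1 CPM (597 to 621), in the 5% pdRBC library and to 10891 UMIs, or 817 CPM (801 to 832), in the hRBC library. The log2 fold of the sum was -0.42 (-0.46 to -0.38). These intervals, like all others here, are exact 95% ones for counting error only. CKS2 and ECT2 were the members with less than 50% of their UMIs in cycling cells, and without them the sum was 490.3 CPM in 5% pdRBC and 697 CPM in hRBC (log2 fold -0.51).

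Of the 44 genes, 42 were measured, that is, had 100 or more UMIs over both libraries, and 41 of these lay below a log2 fold of 0, as 45.8% of the 11043 measured genes did. At least 1.5-fold lower were 15 of the 42, against 1.1% of measured genes, and at least 1.5-fold higher 0, against 1.55%. The median log2 fold of the 42 was -0.52, against 0.02 for measured genes, and their folds ran from -1.10 to 0.03. NDC80 and TTK had too few UMIs to be measured and are given with their groups below. Because there is 1 library per group, these counts describe 2 libraries and not the treatment. The list was chosen with earlier results of these data known, so the counts are not an independent check.

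**Figure D1:**
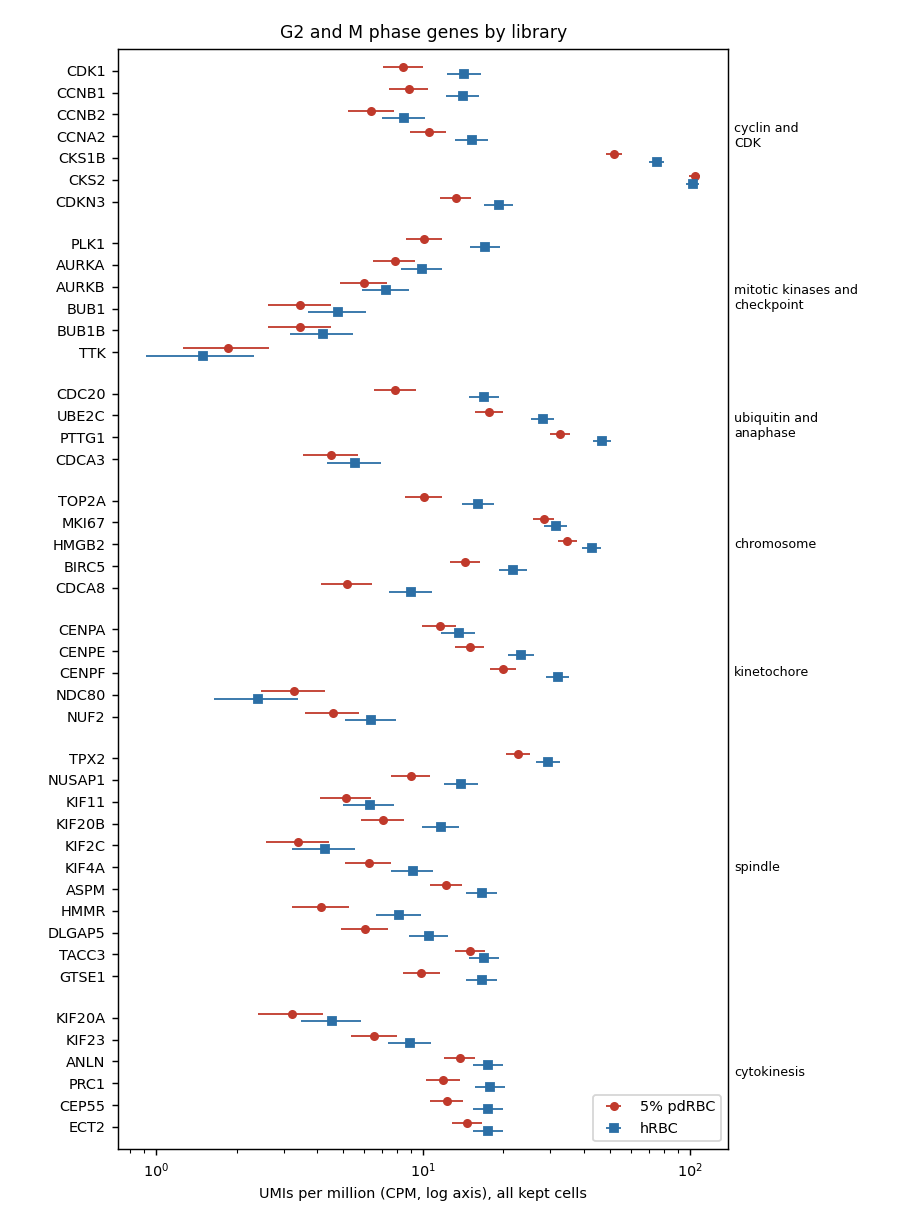
Level of each of the 44 genes in all kept cells, in CPM on a log axis, with exact Poisson 95% intervals of the UMIs (circles 5% pdRBC, squares hRBC; rows grouped by role). In 41 of the 44 rows the circle lies left of the square, and CDC20 shows the widest gap among the measured genes.

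Among the cyclins and their kinase, CDK1 had 136 UMIs (8.43 CPM) in 5% pdRBC and 190 UMIs (14.2 CPM) in hRBC. Its log2 fold was -0.76 (-1.08 to -0.43). CCNB1, the cyclin B that carries CDK1 into mitosis, had 143 UMIs (8.87 CPM) in 5% pdRBC and 188 (14.1 CPM) in hRBC, a log2 fold of -0.67 (-0.99 to -0.35). Both were at least 1.5-fold lower, and the other cyclins were lower by less. CCNB2, a second cyclin B, had a log2 fold of -0.41, CCNA2, which acts from S phase to early mitosis, -0.54, and CDKN3, a phosphatase that dephosphorylates CDKs, -0.53. The small CDK-binding subunits CKS1B and CKS2 were unlike each other. CKS1B had 839 UMIs (52.0 CPM) in 5% pdRBC and 1000 UMIs (74.99 CPM) in hRBC, a log2 fold of -0.53 (-0.66 to -0.39). CKS2 had 1679 UMIs (104 CPM) in 5% pdRBC and 1363 UMIs (102 CPM) in hRBC, a log2 fold of 0.03 (-0.08 to 0.13). The sign for CKS2 changed with the cells counted, from -0.20 when each cell had equal weight to 0.06 in cells of 5000 or more UMIs. The genes are close paralogs, so their counts are uncertain where reads cannot be told apart.

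The mitotic kinases were lower to unequal degrees. PLK1, which acts from mitotic entry to the end of division, had 163 UMIs (10.1 CPM) in 5% pdRBC and 228 UMIs (17.1 CPM) in hRBC, a log2 fold of -0.76 (-1.06 to -0.46). It was the one gene of these 6 to reach 1.5-fold in the lower direction, against 1.1% of measured genes. AURKA, the kinase of spindle poles, had a log2 fold of -0.34 (-0.71 to 0.02) and AURKB, the kinase of the chromosomal passenger complex, -0.27 (-0.70 to 0.15). The spindle checkpoint genes BUB1 and BUB1B had log2 folds of -0.47 (-1.01 to 0.07) and -0.27 (-0.83 to 0.29). TTK, the checkpoint kinase MPS1, had 30 UMIs in 5% pdRBC and 20 in hRBC (log2 fold 0.30, -0.55 to 1.20), so that a difference was not detectable at this depth.

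The genes that trigger anaphase held the largest difference among the measured members. CDC20, the activator of the anaphase-promoting complex, had 127 UMIs (7.87 CPM) in 5% pdRBC and 226 UMIs (16.9 CPM) in hRBC. That is 2.15-fold (1.72 to 2.70) lower with 5% pdRBC, a log2 fold of -1.10 (-1.43 to -0.79). CDC20 was the only measured member past 2-fold. UBE2C, the E2 enzyme that works with that complex, had 285 UMIs (17.7 CPM) in 5% pdRBC and 374 UMIs (28.0 CPM) in hRBC, a log2 fold of -0.67 (-0.89 to -0.44). PTTG1, or securin, which holds separase inactive until anaphase, was at 32.6 CPM in 5% pdRBC and 46.9 CPM in hRBC (log2 fold -0.53). CDCA3, an adaptor of a ubiquitin ligase at mitotic entry, had a log2 fold of -0.29 (-0.78 to 0.19). In GENCODE release 29 (GRCh38) the CDC20 gene spans chr1:43358955-43363203 on the plus strand.

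All 5 chromosome genes and 4 of the 5 kinetochore genes lay below a log2 fold of 0, as 45.8% of measured genes did, to unequal degrees. TOP2A, the topoisomerase that untangles sister chromosomes, had 162 UMIs (10.0 CPM) in 5% pdRBC and 214 UMIs (16.0 CPM) in hRBC, a log2 fold of -0.67 (-0.98 to -0.37). CDCA8, or borealin, and BIRC5, or survivin, sit in the same passenger complex and had log2 folds of -0.79 (-1.21 to -0.37) and -0.60 (-0.85 to -0.34). MKI67, the proliferation marker Ki-67 that coats mitotic chromosomes, was closer to level. It had 456 UMIs (28.3 CPM) in 5% pdRBC and 418 UMIs (31.3 CPM) in hRBC, a log2 fold of -0.15 (-0.34 to 0.05). HMGB2, a chromatin protein that binds DNA, had a log2 fold of -0.30 (-0.48 to -0.13). At the kinetochore, the structure that links chromosomes to the spindle, CENPE and CENPF had log2 folds of -0.64 (-0.89 to -0.39) and -0.68 (-0.90 to -0.47). CENPA, the histone H3 variant of centromeres, had a log2 fold of -0.24 (-0.54 to 0.07). The partners NDC80 and NUF2 form 1 microtubule-binding complex yet had log2 folds of unlike sign, 0.44 (-0.21 to 1.13) on 53 UMIs in 5% pdRBC and 32 in hRBC for NDC80, and -0.47 (-0.94 to -0.01) for NUF2.

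The 11 spindle genes all lay below a log2 fold of 0, as 45.8% of measured genes did, and 5 reached 1.5-fold, against 1.1%. HMMR, which binds microtubules and hyaluronan, had 67 UMIs (4.15 CPM) in 5% pdRBC and 108 UMIs (8.10 CPM) in hRBC, a log2 fold of -0.96 (-1.43 to -0.51). DLGAP5, which stabilises the fibres that pull on kinetochores, had a log2 fold of -0.79 (-1.18 to -0.41). GTSE1, a microtubule-binding protein of G2 and S phase, had -0.75 (-1.06 to -0.46), KIF20B, a kinesin needed late in division, -0.73 (-1.09 to -0.37), and NUSAP1, a spindle-associated protein, -0.62 (-0.95 to -0.30). The other 6 lay between -0.55 for KIF4A, a kinesin that binds chromosome arms, and -0.18 (-0.44 to 0.09) for TACC3, with ASPM, a spindle pole protein, at -0.45. TPX2, which activates AURKA on the spindle, was among them at 22.6 CPM in 5% pdRBC and 29.4 CPM in hRBC, a log2 fold of -0.38. Of the 6 cytokinesis genes none reached 1.5-fold, as few would at the share of all measured genes (1.1%). All 6 lay below 0, from -0.58 for PRC1, which bundles the midzone, to -0.26 (-0.53 to 0.01) for ECT2, which activates RhoA for the cleavage furrow. Between them lay CEP55, which acts in the final cut between daughter cells, with 198 UMIs (12.3 CPM) in 5% pdRBC and 234 UMIs (17.5 CPM) in hRBC (-0.51). KIF20A and KIF23, kinesins of the midzone, had log2 folds of -0.50 (-1.07 to 0.05) and -0.44 (-0.83 to -0.05), and ANLN, the scaffold of the cleavage furrow, -0.35.

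The next question was whether fewer cells cycled or the genes stood lower in each cycling cell. Cycling cells were chosen without any of the 44 genes, from 49 other mitotic genes such as NCAPG, KIF14 and CENPW. Each cell of 2000 or more UMIs was thinned to 2000, which left out 44 cells of 5% pdRBC and 1180 of hRBC, and a cell counted as cycling at 2 or more UMIs of those genes. By this rule 179 of 1557 cells cycled in 5% pdRBC (11.5%, exact binomial interval 9.95 to 13.2) and 209 of 1375 in hRBC (15.2%, 13.3 to 17.2). The class is a range and not a cell type, since 64 and 57 cells lay just at the minimum and 223 and 259 had 1 UMI, in 5% pdRBC and hRBC. Of the UMIs of the 44 genes, 65.4% lay in cycling cells in 5% pdRBC and 65.2% in hRBC, although these cells held 11.7% of all UMIs in 5% pdRBC and 14.2% in hRBC.

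Within cycling cells the genes differed less between the libraries, and the sign depended on how cycling cells were chosen. They summed to 3390 CPM in 5% pdRBC and 3691 CPM in hRBC, a log2 fold of -0.12 (-0.17 to -0.07). Across 7 other ways to choose the cells it ran from -0.23 to 0.13, with 0.09 at 3 or more UMIs and 0.13 when cells were clustered without the 44 genes, which also brought in the kept cells under 2000 UMIs. The median log2 fold of the 38 genes with 100 or more UMIs there was -0.20, against 0.02 for all 5556 such genes, and 27 of the 38 were below 0, against 47.7%. At least 1.5-fold lower were 3 of the 38, against 1.39%. At least 1.5-fold higher were 0, as few would be at the share of all such genes (2.23%). Without the minimum, 3 of the 44 were at least 1.5-fold lower and 2 at least 1.5-fold higher, NDC80 and TTK, both under 100 UMIs there. Cycling cells had a median of 10268.0 UMIs in 5% pdRBC and 3796 in hRBC, a gap in depth whose part in these levels was not tested.

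The 3 genes at least 1.5-fold lower within cycling cells, against 1.39% of measured genes, were CDC20, of anaphase, and KIF20B and HMMR, of the spindle. That count ran from 0 to 5 over 7 other ways to choose the cells. Within cycling cells CDC20 had 101 UMIs (53.8 CPM) in 5% pdRBC and 154 UMIs (92.7 CPM) in hRBC. Its log2 fold was -0.78 (-1.16 to -0.41), and it stayed between -0.94 and -0.48 over 8 ways to choose the cells. KIF20B had a log2 fold of -0.66 (-1.09 to -0.23) and ranged from -0.79 to -0.28. HMMR had a log2 fold of -0.61 (-1.15 to -0.08) and ranged from -0.81 to -0.38. These folds are of UMI sums, and shares of cycling cells with a UMI at equal depth lay closer. CDC20 was found in 22 of 179 cycling cells of 5% pdRBC (12.29%, 7.9 to 18.01) and 25 of 209 of hRBC (11.96%, 7.9 to 17.15). For KIF20B the shares were 7.3% in 5% pdRBC and 8.6% in hRBC, and for HMMR 6.1% and 6.7%. They rest on few cells, and why they differ from the sums was not tested. In all, 11 of the 44 genes were below 0 under every one of the 8 choices (among them PLK1, CENPE, CENPF and PTTG1), 8 were above 0 under every one and 25 took both signs. The 8 choices overlap in cells, so their signs are not independent. No such count was made over all genes, so these numbers cannot be set against a share of the table.

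Several genes that were lower over all cells were not lower within cycling cells. MKI67 stood at 216 CPM (405 UMIs) in cycling cells of 5% pdRBC and at 170 CPM (282 UMIs) in those of hRBC, a log2 fold of 0.35 (0.12 to 0.57), and it ranged from 0.16 to 0.71. TACC3, which stabilises spindle microtubules, had 0.30 (-0.06 to 0.67), CENPA 0.23 (-0.15 to 0.62) and AURKB 0.19 (-0.28 to 0.67). These 4, with CDCA3, KIF2C, NDC80 and TTK, were the 8 above 0 under every choice. CDCA3 had a log2 fold of 0.10 (-0.45 to 0.66) and KIF2C, a kinesin that takes microtubules apart, 0.19 (-0.45 to 0.84). NDC80 had 46 UMIs in 5% pdRBC and 24 in hRBC (0.75, 0.02 to 1.54), and TTK 27 and 10 (1.21, 0.17 to 2.47). TPX2 had 0.17 (-0.10 to 0.43), HMGB2 0.14 (-0.10 to 0.39), ANLN 0.13 (-0.19 to 0.46) and KIF11, the kinesin that separates spindle poles, 0.15 (-0.40 to 0.72). ECT2 had 0.09 (-0.33 to 0.52) and BUB1B 0.07 (-0.59 to 0.75), and for these and the 4 just before them the sign was negative under 1 to 3 of the 8 choices.

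**Figure D2:**
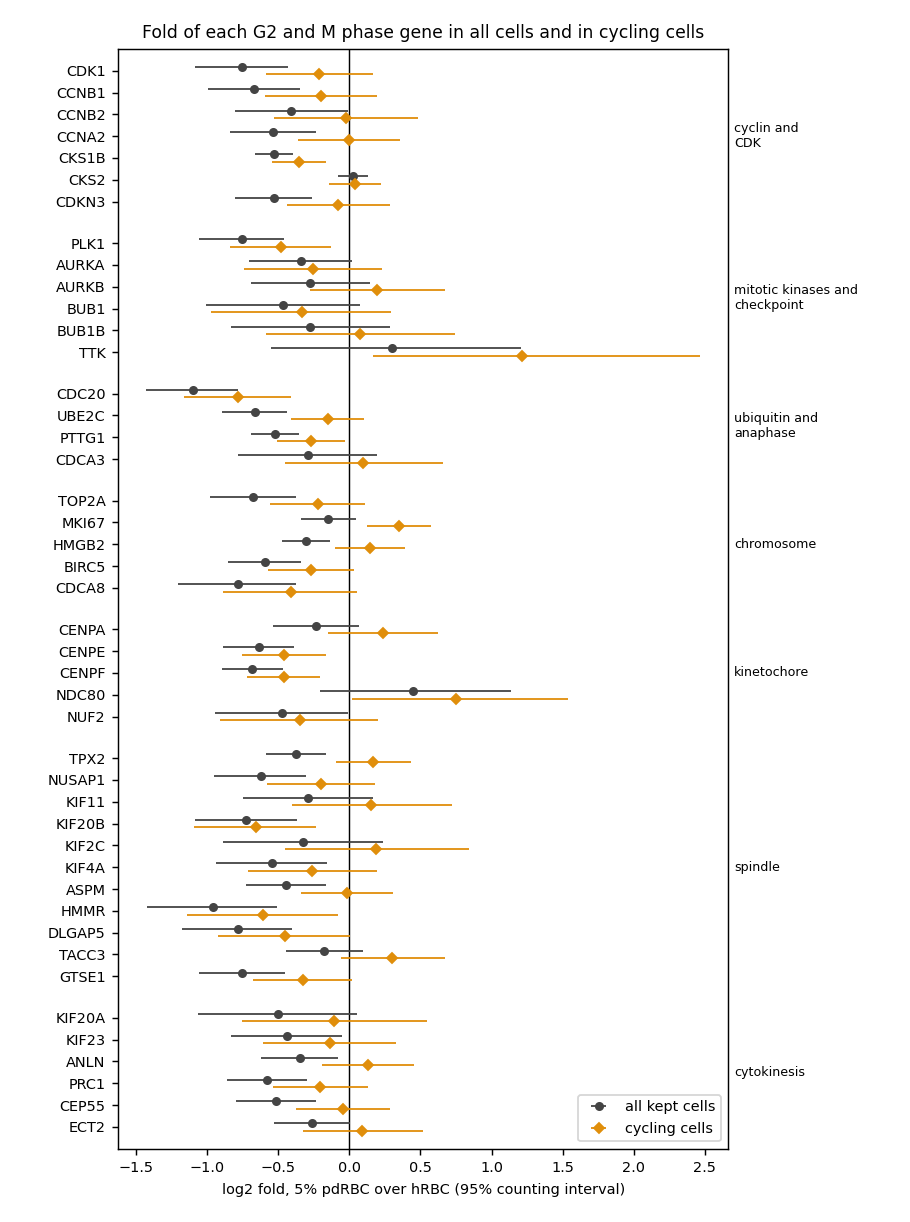
Log2 fold of 5% pdRBC over hRBC for each of the 44 genes over all kept cells (grey circles) and within cycling cells chosen without these genes (orange diamonds), with 95% counting intervals. Most diamonds lie right of their circles and nearer 0, CDC20 lies at -0.78 within cycling cells and MKI67 at 0.35.

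Outside cycling cells the genes were at 237 CPM in 5% pdRBC and 327 CPM in hRBC, a log2 fold of -0.46 (-0.53 to -0.39). With 100 or more UMIs there, 14 genes were measured, of which 8 were at least 1.5-fold lower, against 0.931% of measured genes, 0 at least 1.5-fold higher, against 1.65%, and 13 below 0, against 43.5%. The value of the sum depended on where the line was drawn, and it was -0.23 with another random draw of the thinned UMIs and -0.21 when all kept cells were clustered without the 44 genes. In the 1155 cells of 5% pdRBC and 907 of hRBC with no UMI of the other mitotic genes at equal depth, the genes stood at 221 CPM and 231 CPM, a log2 fold of -0.07 (-0.15 to 0.02). CKS2 and ECT2 made up 85.8 CPM of this in 5% pdRBC and 75.6 CPM in hRBC (log2 fold 0.18). Without them the log2 fold was -0.21 (-0.31 to -0.10) in these cells and -0.72 (-0.80 to -0.63) over all cells outside the cycling class. CKS2 thus had UMIs well beyond cycling cells, with 32.3% of its UMIs in cycling cells of 5% pdRBC and 39.5% in those of hRBC, whereas for TOP2A these shares were 91.9% and 82.3%.

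Counting cells rather than molecules gave a difference in the same direction. At 2000 UMIs per cell, 580 of 1557 cells of 5% pdRBC (37.3%, 34.8 to 39.7) and 612 of 1375 of hRBC (44.5%, 41.9 to 47.2) had a UMI of at least 1 of the 44 genes. Of 5 or more genes, 102 cells of 5% pdRBC (6.55%, 5.37 to 7.90) and 137 of hRBC (9.96%, 8.43 to 11.7) had a UMI, a share 1.52 times larger in hRBC. Cells with 10 or more numbered 32 (2.06%, 1.41 to 2.89) in 5% pdRBC and 51 (3.71%, 2.77 to 4.85) in hRBC. The highest number in a cell was 18 in both. Where no UMI of the other mitotic genes was seen, 5 or more genes were found in 4 of 1155 cells of 5% pdRBC (0.346%) and in 4 of 907 of hRBC (0.441%). Over all cells outside the cycling class the counts were 6 of 1378 in 5% pdRBC (0.435%) and 22 of 1166 in hRBC (1.89%). Among cycling cells the share with 5 or more was 53.6% (46.0 to 61.1) in 5% pdRBC and 55.0% (48.0 to 61.9) in hRBC, with a median of 5 genes per cycling cell in both. At 10 or more genes these shares were 17.3% (12.1 to 23.7) in 5% pdRBC and 23.4% (17.9 to 29.8) in hRBC. The intervals of the 2 libraries were thus apart for 5 or more genes over all cells, and overlapped at 10 or more. Within cycling cells they overlapped at both numbers. That class holds far fewer cells and its intervals are wider, so this contrast cannot tell the 2 settings apart. Cells of 1 library are not replicates of a perfusion.

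**Figure D3:**
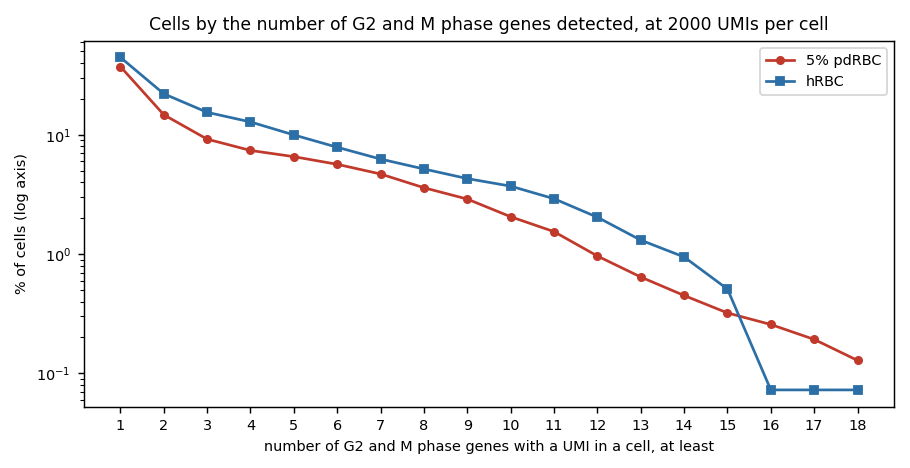
Percentage of cells (log axis) in which at least the given number of the 44 genes had a UMI, with each cell thinned to 2000 UMIs (circles 5% pdRBC, 1557 cells; squares hRBC, 1375 cells). At 5 genes the points are 6.55% and 9.96%, and at 10 genes 2.06% and 3.71%; from 16 genes up, where the order turns, the points rest on at most 4 cells of 5% pdRBC and 1 of hRBC.

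Gene by gene at equal depth, 42 of the 44 were found in a smaller share of cells of 5% pdRBC. Of the 26 with a UMI in 50 or more cells over both libraries, 25 had the smaller share in 5% pdRBC, against 48.1% of 9121 such genes, and for 14 it was at least 1.5 times smaller, against 2.04%. PLK1 was found in 21 cells of 5% pdRBC (1.35%) and 44 of hRBC (3.20%), and in 0.433% and 0.772% of cells with no UMI of the other mitotic genes. CDK1 was found in 19 cells of 5% pdRBC (1.22%) and 38 of hRBC (2.76%), and in 0.26% and 0.662% of cells with none. TOP2A was found in 22 cells (1.41%) of 5% pdRBC and 40 (2.91%) of hRBC, with 0.26% and 0.551% in cells with none. For CKS2 the shares were 14.96% in 5% pdRBC and 16.4% in hRBC, and in cells with none they were 12.3% and 12.3%. NDC80 (9 and 6 cells, in 5% pdRBC and hRBC) and TACC3 (48 and 42 cells, or 3.08% and 3.05%) were the 2 genes without a smaller share in 5% pdRBC. Cells with no UMI of the other mitotic genes had medians of 9604 UMIs in 5% pdRBC and 7888 in hRBC before thinning.

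Because the libraries differed in depth, the sum was also taken within ranges of UMIs per cell, and its direction was not the same in each. In cells of 10000 to below 20000 UMIs the genes stood at 629 CPM (613 to 646) in 664 cells of 5% pdRBC and at 818 CPM (796 to 840) in 479 cells of hRBC. At 2000 to below 5000 UMIs they stood at 685 CPM in 187 cells of 5% pdRBC and 930.3 CPM in 606 cells of hRBC, and at 20000 or more at 888 CPM in 62 cells of 5% pdRBC and 1101 CPM in 59 of hRBC. In cells of 5000 to below 10000 UMIs the order was the opposite, with 469 CPM (450.4 to 488) in 644 cells of 5% pdRBC and 380.3 CPM (352 to 410.2) in 231 cells of hRBC. It was also the opposite at 1000 to below 2000 UMIs, on 94 UMIs of these genes in 44 cells of 5% pdRBC (1377 CPM) against 1482 UMIs in 1180 cells of hRBC (900.5 CPM). The share of cycling cells at equal depth was closest in cells of 10000 to below 20000 UMIs, at 13.1% in 5% pdRBC and 13.6% in hRBC, and in the 2000 to below 5000 range it was 14.97% and 19.6%. At 5000 to below 10000 UMIs it was 8.70% in 5% pdRBC and 6.06% in hRBC, and at 20000 or more 12.9% and 18.6%. Over all cells of 5000 or more UMIs it was 11.02% in 5% pdRBC and 11.7% in hRBC, while the share with 5 or more of the 44 genes was 5.99% and 8.97%. In the same cells, thinned to 5000 UMIs and called cycling at 3 or more UMIs of the other mitotic genes, the share of cycling cells was 11.8% in 5% pdRBC and 15.9% in hRBC. How far apart the cycling shares of deep cells lay thus depended on the thinning depth and minimum. The share with 5 or more of the 44 genes also differed by range. It was 10.7% in 5% pdRBC and 11.2% in hRBC at 2000 to below 5000 UMIs, and 4.66% and 4.76% at 5000 to below 10000. At 10000 to below 20000 UMIs it was 6.93% in 5% pdRBC and 10.2% in hRBC, and at 20000 or more 9.68% and 15.25%.

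**Figure D4:**
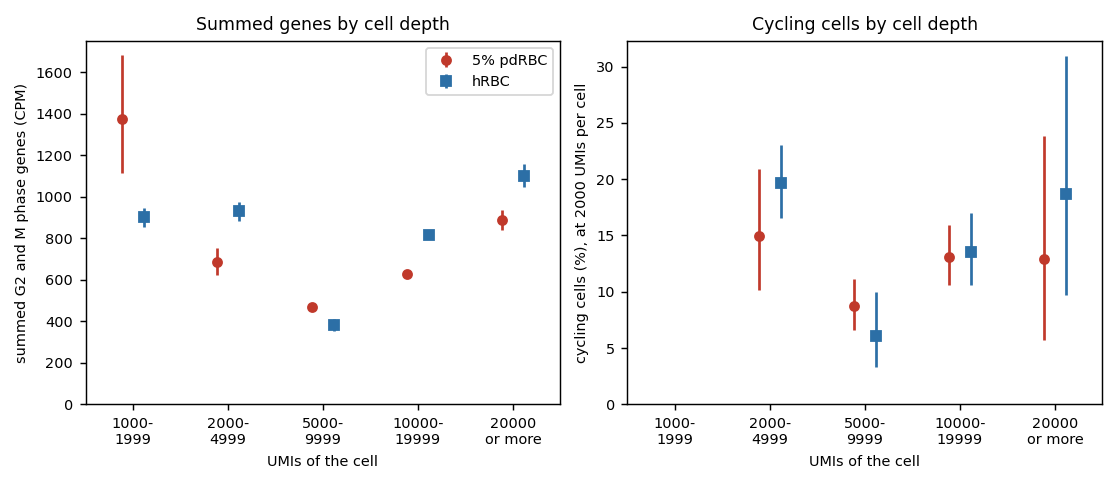
Left, summed level of the 44 genes (CPM) by range of UMIs per cell; right, percentage of cycling cells at 2000 UMIs per cell by the same ranges (circles 5% pdRBC, squares hRBC, bars 95% counting intervals; cells under 2000 UMIs cannot be scored). The sum is lower in 5% pdRBC in 3 of the 5 ranges and higher at 1000 to below 2000 and 5000 to below 10000 UMIs.

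Other genes of the cell cycle were taken from lists chosen by role. Of the 49 other mitotic genes 35 were measured, 33 of them below 0 on the log2 scale, against 45.8% of measured genes. Of the 35, 4 reached 1.5-fold in the lower direction, against 1.1%, and 0 in the higher, against 1.55% (median -0.38). CENPW, a kinetochore protein, had a log2 fold of -0.75 (-0.92 to -0.57), PLK4, which starts centriole copying, -0.69, CDCA2 -0.65 and TRIP13, an ATPase of the spindle checkpoint, -0.60. Of 31 measured S phase genes 24 were below 0, against 45.8% of measured genes, with a median of -0.14. Within cycling cells the UMI sum of the S phase genes was higher in 5% pdRBC, at 1741 CPM against 1616 CPM in hRBC, a log2 fold of 0.11 (0.03 to 0.18). At equal depth the order was the opposite. There 142 of 179 cycling cells of 5% pdRBC (79.33%, 72.65 to 85.01) had an S phase UMI, and 184 of 209 of hRBC (88.04%, 82.85 to 92.11). Both were taken only under the main choice of cycling cells, and why they differ was not tested. Over all kept cells the S phase genes summed to 417.7 CPM in 5% pdRBC and 491.6 CPM in hRBC, a log2 fold of -0.24 (-0.28 to -0.19). Over these same cells RRM2 (-0.62), UHRF1 (-0.48) and PCLAF (-0.47), genes of deoxynucleotide supply, DNA methylation upkeep and the replication clamp, were lower. POLA1, the catalytic subunit of polymerase alpha, was higher over all kept cells, at 0.50 (0.11 to 0.91).

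The transcriptional regulators were listed with activators and repressors together. Of 18 measured, 0 reached 1.5-fold in either direction, as few would at the shares of all measured genes (1.1% lower and 1.55% higher), and the median log2 fold was 0.03. FOXM1 was lower, with 278 UMIs (17.2 CPM) in 5% pdRBC and 336 UMIs (25.2 CPM) in hRBC, a log2 fold of -0.55 (-0.78 to -0.31). MYBL2, which codes for B-MYB, was at 30.9 CPM in 5% pdRBC and 39.1 CPM in hRBC (-0.34, -0.52 to -0.16). FOXM1 and MYBL2 are themselves expressed in dividing cells. LIN52, a subunit of the MuvB core, had 0.33 (-0.02 to 0.68) and RBL1, the pocket protein p107, -0.27 (-0.76 to 0.21). Among 24 genes of the anaphase-promoting complex, the checkpoint and mitotic entry, 1 was at least 1.5-fold lower, against 1.1% of measured genes, and the median was -0.01. That gene was PKMYT1, a kinase that holds CDK1 inactive, at -0.77 (-1.15 to -0.40), followed by the checkpoint gene MAD2L1 (-0.50), CDC25B, a phosphatase that activates CDK1 (-0.46), and UBE2S, which extends ubiquitin chains for the anaphase-promoting complex (-0.28). Of 15 measured CDK inhibitors, G1 cyclins and genes of quiescence 0 reached 1.5-fold, as few would at the shares of all measured genes (1.1% lower and 1.55% higher), with a median of 0.01. CDK6 (-0.33) and GADD45A (-0.32) had the largest folds among them, with CCNG2 at 0.23 (-0.10 to 0.57) and CCND3 at -0.21.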

How the data were processed

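The authors deposited raw UMI counts per gene and barcode for 2 libraries, written by Cell Ranger 7.0.0 per the file headers. The build, GRCh38, comes from the submitters' processing notes. The sources used here give no annotation release, strand setting, use of intronic reads or later filter. Of the 44 genes, 4 overlap a coding gene on their strand and 17 another gene on the opposite strand in GENCODE release 29, so their counts are less certain, as are those of genes with close copies.

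Kept barcodes had 1000 UMIs and 500 genes at least, and no more than 20% of mitochondrial UMIs. UMIs were summed per library. CPM is UMIs per 1000000 of that sum. Folds put 5% pdRBC over hRBC, after adding 0.5 UMIs to both sums. Intervals are exact 95% Poisson intervals of sums, Clopper-Pearson intervals of the split of a gene's UMIs between libraries, and exact binomial intervals of shares. They cover counting error only. The floor for a gene without UMIs is 3 counts, or 0.186 CPM in 5% pdRBC and 0.225 CPM in hRBC. Cells were thinned without replacement (seed 1). No doublet caller was run and doublets were left in, with an alternative without the 1% of cells with most UMIs. No p-value was computed, as each group is 1 library. Folds were checked on simulated counts.

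Named were all 44 genes and, of each further list, the 4 measured genes with the largest folds. The pair CKS2 and ECT2 and the 5 promoters shown were picked after values were seen. The members and lists were chosen with earlier results of these data known. Alternatives covered cell filters, weights, thinning, scaling, gene minimum and the choice of cycling cells. Software was Python 3.11.15, NumPy 2.4.6, SciPy 1.17.1, pandas 2.3.3, Scanpy 1.11.5 and python-igraph 0.11.9.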

Additional observations from a re-analysis of the deposited data

Results flagged for a closer look

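The barcodes that the cell filter left out enter no result of the report beyond the alternative that takes all barcodes, and they held G2 and M phase UMIs above the 3 counts that a count of 0 allows. In the 34 left-out barcodes of 5% pdRBC the 44 genes had 43 UMIs, or 1392 CPM (1007 to 1875). In the 1303 left-out barcodes of hRBC they had 1140 UMIs, or 1155 CPM (1089 to 1224). Both levels lie above those of the kept cells, 609.1 CPM in 5% pdRBC and 817 CPM in hRBC. What these shallow barcodes are was not tested.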

How the results depend on the processing

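No paired analysis was possible because each group is 1 library, and no library could be left out. The log2 fold of the summed genes, -0.42, kept its sign under 8 alternatives, from -0.51 to -0.38. It was -0.38 in cells of 5000 or more UMIs, -0.51 with every cell weighted equally, -0.49 with cells thinned to 2000 UMIs, -0.49 without the 1% of cells with most UMIs, and -0.51 without CKS2 and ECT2, an alternative chosen after seeing the data. The median log2 fold of the measured genes, -0.52, was -0.56 with all barcodes, -0.46 in cells of 5000 or more UMIs and -0.59 without the 1% of cells with most UMIs. The count of 15 genes at least 1.5-fold lower was 3 of 11 measured with thinned cells and 4 of 10 at a minimum of 500 UMIs, where fewer genes are tested, and 1 at 2-fold. It was 22 of 42 without the 1% of cells with most UMIs, and 19 of 42 both with all barcodes and with equal weights.

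The shares of cells with 5 or more genes were close within the depth ranges from 2000 to below 10000 UMIs. With the ranges together their log2 ratio, -0.60, stayed between -0.85 and -0.51 under 6 alternatives. That of cycling cells, -0.40, was -0.72 with clustering without the 44 genes (8.62% in 5% pdRBC and 14.2% in hRBC), which takes all kept cells at their own depth, those under 2000 UMIs included, and -0.087 in cells of 5000 or more UMIs, added after seeing the data, but -0.42 in those cells when thinned to 5000 UMIs with a minimum of 3. The cause was not tested.

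The log2 fold within cycling cells, -0.12, was reversed at 3 or more UMIs (0.093) and with clustering (0.13). It was -0.23 at 1 or more UMIs, -0.013 in cells of 5000 or more UMIs thinned to 5000 with a minimum of 3, and -0.057 with cells weighted equally, added after seeing the data. The fold outside cycling cells, -0.46, was -0.068 at 1 or more UMIs, -0.0051 with that same joint change of cells, depth and minimum, -0.18 with S phase genes added to the rule, -0.23 with seed 2 and -0.21 with clustering, so that it depends on how the cells are split. The count of 3 genes at least 1.5-fold lower within cycling cells was 1 with S phase genes, 0 with clustering and 5 in cells of 5000 or more UMIs, all added after seeing the data. Depth limits NDC80 and TTK, and shares of cells near 1%.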
